A study of Mus musculus with 2 samples.

Results

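The genes described here are 8 markers of mouse blood stem cells, Procr, Fgd5, Esam, Slamf1, Cd34, Adgrg1, Cd27 and Ctla2a, followed in single cells of lineage-depleted bone marrow from hypoxia-exposed and control mice. They were taken by symbol from the gene columns of both deposited tables, and all 8 were present among 27706 genes in all. The hypoxia library came from ICR mice aged 7 to 8 weeks that were housed for 13 days in a low-pressure chamber at 52.93 kPa, a pressure equated with 5000 m, with 19.5% oxygen. The control library came from ICR mice of the same stated age that were killed when they reached the study site and were not kept in parallel, so chamber time, handling and low pressure cannot be told apart. Lineage-positive marrow cells were removed on magnetic beads, and the rest were captured with the BD Rhapsody system, which counts unique molecules (UMIs) per cell. Each group had 1 library, from a number of mice that the labels do not give. No test between groups was therefore possible, no p-value is given, and every interval is an exact 95% interval that covers counting error only.

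Haematopoietic stem cells are few, and are usually recognised by combinations of surface proteins rather than by any single one. Procr encodes the endothelial protein C receptor, Esam a junctional adhesion molecule shared with endothelium and platelets, and Slamf1 the SLAM family receptor CD150, which is read together with absence of CD48. Cd34 encodes a sialomucin of progenitors that the most primitive adult mouse stem cells carry little of, Adgrg1 the adhesion receptor GPR56, and Cd27 a receptor of the tumour necrosis factor receptor family. Fgd5 and Ctla2a are used as stem cell markers too, but neither product is a surface receptor: Fgd5 is an intracellular protein, and Ctla2a resembles the inhibitory propeptide of cathepsin L-like proteases. The label of surface markers thus holds for 6 of the 8 products.

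In GRCm38, Procr lies on chromosome 2 from 155751117 to 155755471, Fgd5 on chromosome 6 from 91978878 to 92076004 and Esam on chromosome 9 from 37528078 to 37538319. Slamf1 lies on chromosome 1 from 171767127 to 171801184 and Cd34 on the same chromosome from 194938819 to 194961279. Adgrg1 spans 94974751 to 95014217 on chromosome 8, Cd27 spans 125232622 to 125237010 on chromosome 6 and Ctla2a spans 60934155 to 60936625 on chromosome 13 (GENCODE vM21, all protein-coding, Cd27 and Ctla2a on the minus strand). The labels and headers do not say whether counting used strand, so reads of Cd27, which lies wholly inside Vamp1 on the opposite strand, and of the stretches where Fgd5 and Cd34 overlap the antisense genes 4930466I24Rik and Gm16897 cannot be told apart from their partners. The paralog Ctla2b was 70.0% identical to Ctla2a over 1058 aligned transcript bases.

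Cells were sorted into gates by marker genes that include none of the 8 members. After filtering, 6280 hypoxia and 3917 control cells remained, with median depths of 21344.5 and 32156 UMIs, and 23 cell indices occurred in both libraries. The stem and multipotent gate required the stem cell transcription factor gene Hlf with little Gata1 or granule protease transcript, and held 168 hypoxia and 149 control cells with median depths of 10859 and 13374 UMIs. Of the 7 stem cell transcription factor genes used as a check, all 7 had UMIs in both libraries, with a summed level of 1236.9 CPM (a gene's UMIs scaled to a fixed total of the gate's UMIs) in hypoxia and 1336.3 CPM in control. Meis1 was detected in 73.2% and 80.5% of the gated cells and Hoxa9 in 83.9% and 89.3%. The granule list summed to 1837.8 CPM in hypoxia and 1811.6 CPM in control, more than the stem cell list in either library. Its gene Mpo was detected in 83.9% of hypoxia and 75.8% of control stem-gated cells. The endothelial list summed to 85.0 CPM in hypoxia (3 of 7 genes with UMIs) and 76.6 CPM in control (5 of 7). Of the genes that define the endothelial gate, Cdh5 and Ptprb were at 0 in both. Plvap had 2 UMIs in hypoxia and 8 in control, Kdr 0 and 3, and Cldn5 0 and 1. The list of T, NK and innate lymphoid cells summed to 243 CPM and 207 CPM (6 of 8 in each), with Cd3e at 0 in both. A few gated cells had no UMI of Meis1, Hoxa9 or Flt3: 5 hypoxia cells, all 5 with Il7r or Rora, and 4 control cells, 2 of them with Il7r or Rora.

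The most plainly lower members in the hypoxia stem gate were Ctla2a and Esam, while Cd34, Adgrg1 and Cd27 lay within 1.2-fold of the control. Ctla2a stood at 322.6 CPM (298 to 349, 626 UMIs in 142 of 168 cells) in hypoxia, against 565.5 CPM (534 to 598, 1203 UMIs in 136 of 149 cells) in control, a ratio of 0.571 (0.517 to 0.629). Esam stood at 14.4 CPM (9.59 to 20.9, 28 UMIs) in hypoxia and 32.4 CPM (25.2 to 41.0, 69 UMIs) in control, a ratio of 0.445 (0.276 to 0.700). The intervals of the libraries do not overlap for either gene. A member was called when its CPM differed at least 1.5-fold, the interval of the ratio left out 1 and both libraries together held at least 50 UMIs. By that rule 2 of the 7 members with enough UMIs were lower and 0 higher, beside 5.07% of 8652 genes lower and 5.85% higher.

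The other rarely detected members also had lower values in hypoxia stem-gated cells, within wider intervals. Procr was at 24.7 CPM (18.2 to 32.8) in hypoxia and 34.3 CPM (26.9 to 43.1) in control, a ratio of 0.721 (0.490 to 1.05). Fgd5 was at 14.9 CPM (10.01 to 21.5) in hypoxia and 22.6 CPM (16.6 to 29.9) in control, a ratio of 0.662 (0.403 to 1.07). For both genes the library intervals overlap and the ratio's interval holds 1. Slamf1 had 10 UMIs in 7 hypoxia cells, or 5.15 CPM (2.47 to 9.48), and 29 UMIs in 18 control cells, or 13.6 CPM (9.13 to 19.6), a ratio of 0.378 (0.164 to 0.798). Its 39 UMIs in all fell short of the minimum for a call. With the Hlf thresholds doubled, leaving 110 hypoxia and 99 control cells, the log2 ratio of Slamf1 with 10 CPM added on both sides was -0.22, against -0.64 in the whole gate on the same scale.

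The remaining members filled most stem-gated cells in both libraries. Cd34 was at 887.5 CPM (846 to 930) in hypoxia and 746 CPM (710 to 784) in control, a ratio of 1.19 (1.11 to 1.27). Adgrg1 was at 402.5 CPM (375 to 432) in hypoxia and 416 CPM (389 to 444) in control. Cd27 was at 159 CPM (142 to 178) in hypoxia and 164 CPM (147 to 182) in control. Adgrg1 and Cd27 had overlapping intervals between libraries, and those of Cd34 did not overlap, at a ratio below the 1.5-fold limit. Over the 7 members that reached 50 UMIs, Slamf1 being left out, the median log2 ratio with 10 CPM added on both sides was -0.35, beside 0.01 over all genes of the gate.

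**Figure D1:**
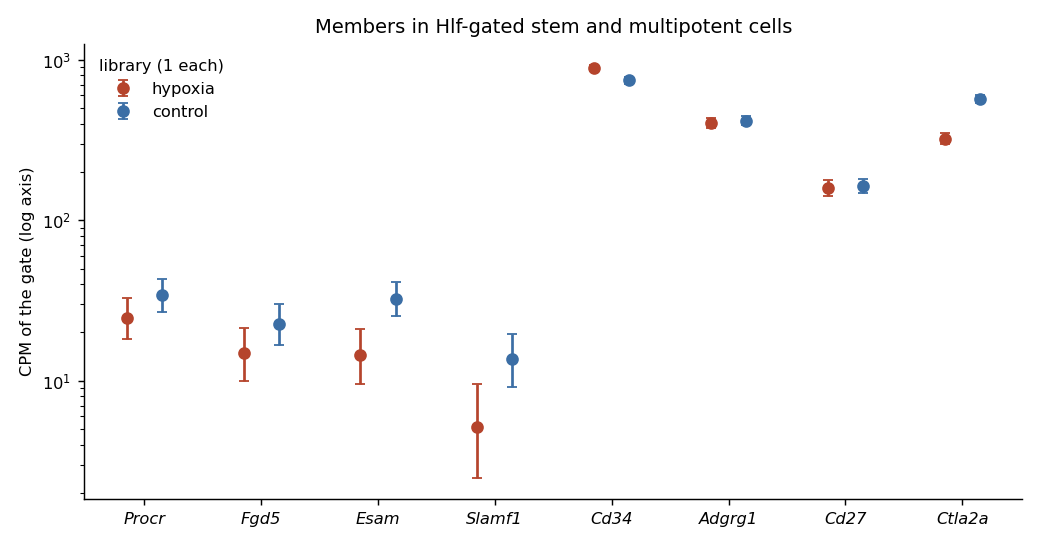
Level of each member in stem and multipotent cells, as CPM of the gate on a log axis, with hypoxia left of control and bars for exact Poisson 95% intervals (1 library each). Ctla2a (322.6 against 565.5 CPM) and Esam (14.4 against 32.4 CPM) have intervals that do not overlap and a ratio past 1.5-fold, and Cd34, Adgrg1 and Cd27 lie close together.

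Other transcripts moved between the libraries in the same cells. The globin-high erythroid list summed to 69.6 CPM in hypoxia stem-gated cells (6 of 6 genes with UMIs) and 12.7 CPM in control (4 of 6, with Hba-a2 and Alas2 at 0). The monocyte and dendritic list summed to 315 CPM in hypoxia and 177 CPM in control (6 of 6 in each), and the erythroid progenitor list to 206 CPM and 133 CPM (7 of 7 in each). The basophil and mast list summed to 367 CPM (6 of 6) in hypoxia and 146 CPM (5 of 6, with Gzmb at 0) in control, and the megakaryocyte list to 58.2 CPM and 63.0 CPM (6 of 7 each, with Gp1bb at 0 in both). The immediate early gene Fos was at 331 CPM in hypoxia and 1270 CPM in control. Their part in the member values was not tested.

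Detection rises with depth, so cells were also thinned to 4000 UMIs, which kept 164 hypoxia and 145 control stem-gated cells. Averaged over all possible draws, Esam would be found in 7.60% of thinned hypoxia cells and 14.9% of control cells, Slamf1 in 1.65% and 6.57%, Procr in 11.3% and 15.1%, and Fgd5 in 5.91% and 9.75%. Among the frequent members the expected share was 65.5% and 76.7% for Ctla2a, 90.6% and 86.3% for Cd34, 75.3% and 76.4% for Adgrg1, and 47.7% and 46.4% for Cd27. In percentage points Ctla2a, Esam and Slamf1 differed most at equal depth, all lower in hypoxia, and relative to their control share Slamf1, Esam and Fgd5 did. Without thinning, Procr was found in 22.6% (16.5 to 29.7) of hypoxia and 32.2% (24.8 to 40.4) of control cells and Esam in 13.1% and 30.2%. For background from free RNA, globin-high erythroid cells (median 17655.5 and 23227 UMIs) had a UMI of Procr in 0% of 496 hypoxia cells and 0% of 95 control cells, and of Esam in 0.202% and 0%. They had one of Slamf1 in 3.83% and 4.21%, which for hypoxia is close to the unthinned 4.17% of stem-gated cells, so Slamf1 detection in hypoxia stem-gated cells could not be separated from background at this depth.

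Co-detection in single stem-gated cells was broad for the frequent members and sparse for the rare ones. The median stem-gated cell held a UMI of 4 of the 8 members in hypoxia and 5 in control, and no cell in either library held all 8. All of Cd34, Adgrg1, Cd27 and Ctla2a were found together in 63.7% (55.9 to 71.0) of hypoxia cells and 68.5% (60.4 to 75.8) of control cells. At least 1 of Procr, Fgd5, Esam and Slamf1 was found in 44.6% (37.0 to 52.5) of hypoxia cells and 61.7% (53.4 to 69.6) of control cells. At least 2 of these 4 were found in 14 of 168 hypoxia cells, or 8.33% (4.63 to 13.6), and in 42 of 149 control cells, or 28.2% (21.1 to 36.1). At 4000 UMIs per cell the expected shares were 23.7% and 34.1% for at least 1, and 2.77% and 10.1% for at least 2, again lower in hypoxia.

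The share of cells with at least 3 of all 8 members depended on the depth compared. In 1 draw of 4000 UMIs it was 67.7% (60.0 to 74.8) in hypoxia and 80.0% (72.6 to 86.2) in control, and averaged over all draws 71.1% and 76.1%. At 2000 UMIs it was 39.3% in hypoxia and 36.9% in control, with the order turned round. Without thinning it was 92.3% and 98.0%. The lower values of hypoxia thus lay with the rare members and Ctla2a, and the count over all 8 did not hold its direction at every depth.

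**Figure D2:**
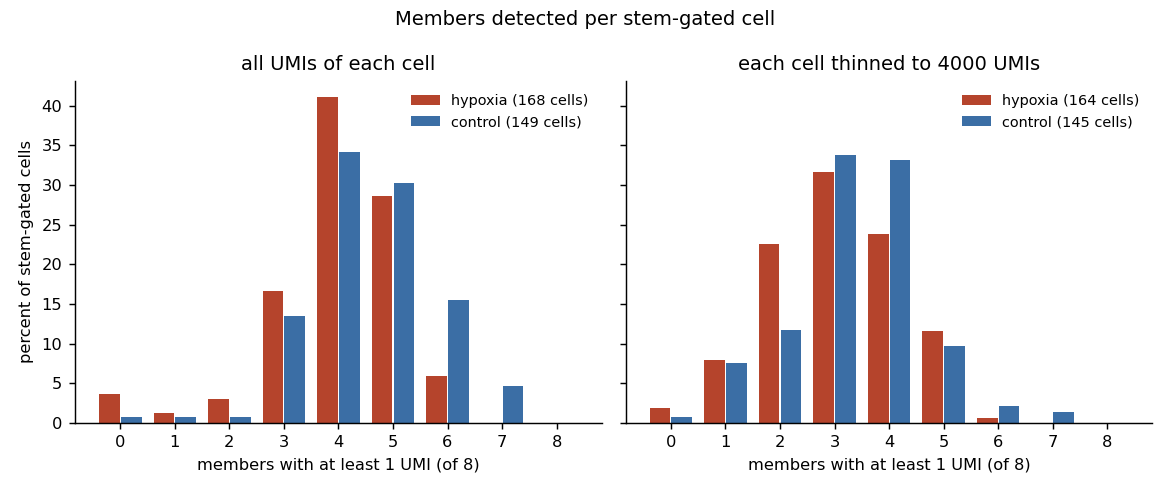
Percent of stem-gated cells by the number of the 8 members with at least 1 UMI, with all UMIs (left panel, 168 hypoxia and 149 control cells) and after 1 random thinning of each cell to 4000 UMIs (right panel, 164 and 145 cells). Hypoxia bars stand left of control bars, and cells with 7 members occur in control alone (7 of 149 cells with all UMIs).

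Particular combinations were rarer still. Procr, Fgd5 and Esam occurred together in 0 hypoxia cells of the whole library and in 8 control cells, of which 7 were stem-gated and 1 endothelial. The count of 0 of 168 stem-gated cells allows a share of up to 2.17% by the exact interval, against 4.70% (1.91 to 9.44) in control. Both are shares of cells with UMIs at unequal depth and do not limit the share that expresses the genes. Procr and Esam were found together in 7 hypoxia stem-gated cells, or 4.17% (1.69 to 8.40), and in 22 control cells, or 14.8% (9.49 to 21.5). Procr and Slamf1 were found together in 1 hypoxia and 4 control stem-gated cells. The fully classical pattern of Procr and Slamf1 with Cd48 at 0 was found in 0 hypoxia and 2 control stem-gated cells, too few to compare.

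Some members kept company within stem-gated cells and others kept apart. In thinned cells 14 of the 28 pairs of members occurred together more often than the product of their single shares in both libraries. In each library alone 19 of 28 did. The count for both libraries was 15 in granulocyte-monocyte and 14 in megakaryocyte-erythroid progenitors, and between 1 and 9 in the other gates compared. It was thus not particular to the stem gate. Procr and Esam had an odds ratio of 3.72 in hypoxia (3 cells with both) and 4.84 in control (8 cells with both), and Esam and Adgrg1 one of 4.17 in hypoxia (10 cells), with 24 cells holding both in control against 19.4 by the product. Adgrg1 and Ctla2a occurred together in 86 of 164 hypoxia cells and 95 of 145 control cells, with odds ratios of 3.20 and 6.92. In the same draw Cd34 stood on the other side: its odds ratio with Slamf1 was 0.0658 in hypoxia (1 cell with both) and 0.0576 in control (3 cells with both), and with Esam 0.281 and 0.471. That did not hold for Slamf1 in hypoxia with all UMIs, where all 7 Slamf1-positive stem-gated cells also had Cd34, against 14 of 18 in control (odds ratio 0.289). For Esam and Cd34 the odds ratio with all UMIs was 0.735 in hypoxia and 0.392 in control. With all UMIs the odds ratio of Procr and Esam was 1.73 in hypoxia and 2.87 in control. In thinned cells Procr and Fgd5 gave 0.644 in hypoxia (1 cell) and 4.06 in control (5 cells), a difference that rests on few cells and was not tested. Over all kept cells, where lineages mix, 25 of 28 pairs lay above the product in both libraries.

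**Figure D3:**
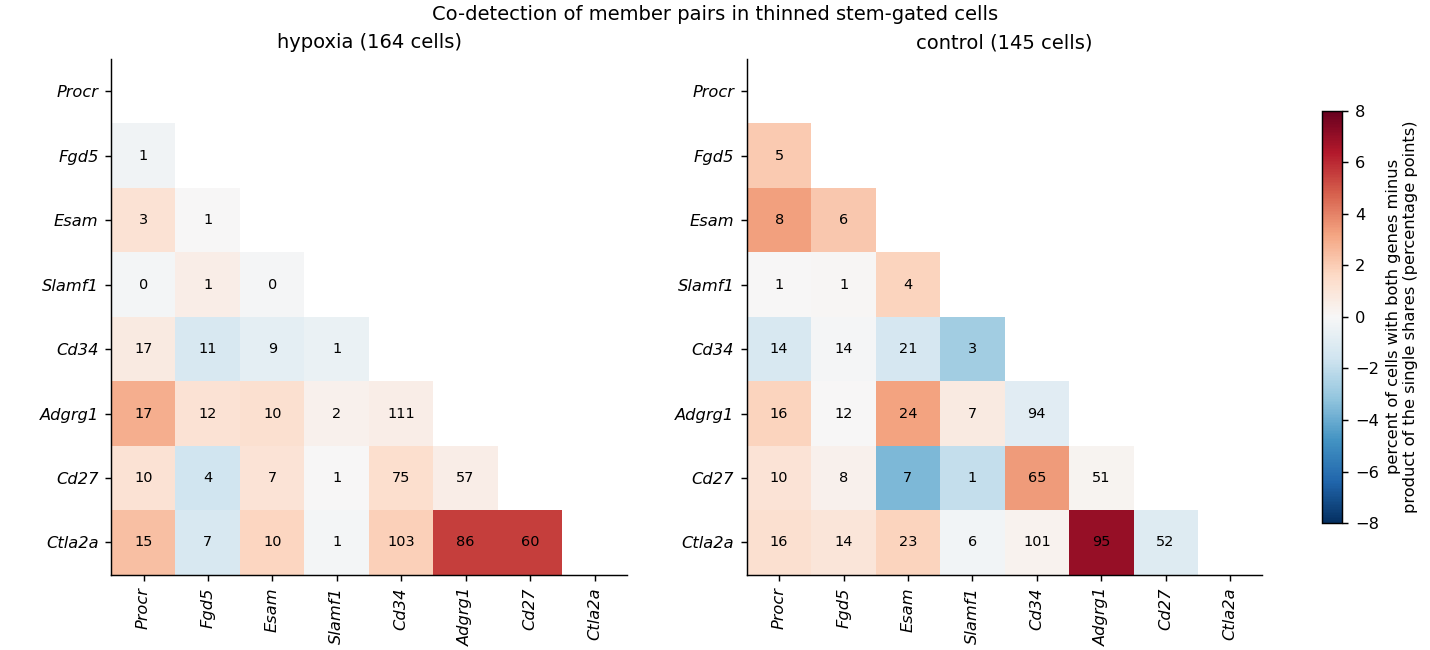
Co-detection of the 28 pairs of members in stem-gated cells thinned to 4000 UMIs, hypoxia left of control. Colour gives the percent of cells with both genes minus the product of the single shares in percentage points, and the printed number counts the cells with both, as 86 hypoxia and 95 control cells for Adgrg1 and Ctla2a.

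The stem gate was split by genes that are not members. Flt3, the receptor gene of multipotent and lymphoid-primed progenitors, had no UMI in 41 hypoxia and 44 control stem-gated cells and at least 1 in 127 and 105. Cells with Flt3 at 0 had 4.94 times (2.20 to 11.4) the Esam level of cells with Flt3 in hypoxia and 2.98 times (1.80 to 4.92) in control. For Slamf1 the ratio was 8.65 (1.98 to 51.9) in hypoxia, on 7 against 3 UMIs, and 9.04 (3.85 to 23.6) in control, on 21 against 8. Cd34 and Cd27 went the other way in both libraries, with ratios of 0.563 and 0.617 for Cd34 and of 0.536 and 0.689 for Cd27. Esam and Slamf1 thus lay toward the side without Flt3, and Cd34 and Cd27 toward the side with it. The side without Flt3 includes the 5 hypoxia and 4 control cells that had no UMI of Meis1 or Hoxa9 either. Of these, all 5 hypoxia cells and 1 control cell had no UMI of any member, and their part in the ratios was not tested.

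Mecom, a transcription factor gene of the most primitive stem cells, split the gate in the same sense for other members. Cells with Mecom had 2.53 times (1.07 to 5.73) the Esam level of cells without it in hypoxia and 5.91 times (3.56 to 9.97) in control. For Procr the ratio was 1.61 (0.799 to 3.08) in hypoxia and 3.90 (2.40 to 6.36) in control, and for Fgd5 it was 1.76 (0.706 to 4.05) and 3.21 (1.74 to 5.90). The hypoxia intervals of Procr and Fgd5 hold 1, whereas the control intervals do not. Among cells with Mecom, 37 in each library, Esam was at 27.9 CPM in hypoxia and 94.7 CPM in control (ratio 0.294, 0.137 to 0.581) and Procr at 35.5 CPM and 83.5 CPM (ratio 0.425, 0.212 to 0.804). Among cells without it, Procr was at 22.0 CPM in hypoxia and 21.4 CPM in control. Whether the libraries differed more among Mecom-containing cells was not tested.

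The lower Ctla2a of the hypoxia library was found in every layer of the gate that was examined. It was at 415 CPM in hypoxia and 907 CPM in control where Flt3 was at 0 (ratio 0.458, 0.381 to 0.547), and at 298 CPM and 466 CPM where Flt3 was detected (ratio 0.638, 0.567 to 0.718). The ratio was 0.519 (0.407 to 0.657) where Cd48 was at 0 and 0.603 (0.541 to 0.672) where it was detected. With Mecom detected it was 0.456 (0.371 to 0.558) and with Mecom at 0 it was 0.615 (0.550 to 0.688). The 34 hypoxia cells with Cd48 at 0 held 0 UMIs of Slamf1, against 15 UMIs, or 37.9 CPM, in 41 control cells.

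Cells in which any of the 4 rare members was detected had more Hlf and Mecom in both libraries, and Hoxa9 did not follow. Hlf stood at 769 CPM in such cells and 466 CPM in the others in hypoxia, and at 816 CPM and 366 CPM in control. Mecom was at 57.9 CPM with a rare member and 16.2 CPM without in hypoxia, and at 38.9 CPM and 8.95 CPM in control. Hoxa9 was at 216 CPM and 243 CPM in hypoxia and at 263 CPM and 246 CPM in control, with overlapping intervals in both. Dntt, which encodes the terminal transferase of lymphoid precursors, went the other way, at 130 CPM with a rare member and 467 CPM without in hypoxia, and at 109 CPM and 667 CPM in control. Cells with a rare member were the shallower ones, with median depths of 10109 UMIs against 11772 in hypoxia and 12022.5 against 15464 in control.

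Outside the stem gate each member had its own map. Among cells thinned to 4000 UMIs, 4 of 64 pairs of a gene and another gate had a higher share than the stem gate in both libraries. These were Esam (22.8% of hypoxia and 35.6% of control cells), Slamf1 (28.1% and 42.2%) and Adgrg1 (73.7% and 77.8%) in megakaryocytes, and Slamf1 (8.49% and 19.9%) in megakaryocyte-erythroid progenitors. For Adgrg1 the stem gate was close behind, at 71.95% in hypoxia and 74.5% in control. The shares in globin-high cells were 0.203% and 0% for Esam, 1.02% and 2.20% for Slamf1 and 7.32% and 2.20% for Adgrg1. Esam was at 121.6 CPM (105 to 140) in hypoxia and 100.7 CPM (89.4 to 113) in control megakaryocytes, its highest level among the 9 gates compared. In the 10 endothelial cells of the control library it had 34 UMIs, or 482 CPM (334 to 673), and the single endothelial cell of the hypoxia library had 0 UMIs. Of the 9 gates compared, Procr and Fgd5 were highest in the stem gate, although the 10 control endothelial cells held 3 UMIs of Procr and 7 of Fgd5.

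Procr was also detected in basophil and mast cells. It was at 8.91 CPM (6.61 to 11.7) in 625 hypoxia cells of that gate and 15.7 CPM (11.02 to 21.6) in 230 control cells, a ratio of 0.569 (0.365 to 0.895). Of all Procr-positive cells, 28.03% of 132 in hypoxia and 18.3% of 131 in control lay in the basophil and mast gate, beside 28.8% and 36.6% in the stem gate. In granulocyte-monocyte progenitors it was at 2.26 CPM in hypoxia and 3.58 CPM in control, and in 66 hypoxia and 106 control megakaryocytes it had 0 UMIs. The basophil and mast gate thus held 1 member lower, Procr, and 1 higher, Ctla2a at 16.6 CPM (13.4 to 20.3) in hypoxia and 9.73 CPM (6.17 to 14.6) in control, beside 6.45% of genes lower and 6.73% higher. Without the cell with most Ctla2a UMIs in each library, the Ctla2a ratio was 1.62 (0.984 to 2.80), an interval that holds 1, and the Procr ratio without its top cells was 0.605 (0.377 to 0.981).

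Fgd5 was the member with the largest share of its positive cells in the stem gate in control. Of 63 Fgd5-positive control cells, 57.1% lay in the stem gate, against 21.0% of 105 Fgd5-positive hypoxia cells. The hypoxia library had 29 Fgd5-positive erythroid progenitors with 31 UMIs, or 0.423 CPM (0.287 to 0.600), against 5 UMIs, or 0.0600 CPM (0.0195 to 0.140), in control. Globin-high cells, taken as background, had Fgd5 in 2.02% of hypoxia and 1.05% of control cells, at 1.23 CPM and 0.495 CPM, so the erythroid progenitor values were not above background and the shares of positive cells include it. Both erythroid progenitor levels are far below those of the stem gate, and the 36 UMIs in all fell short of the minimum for a call.

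**Figure D4:**
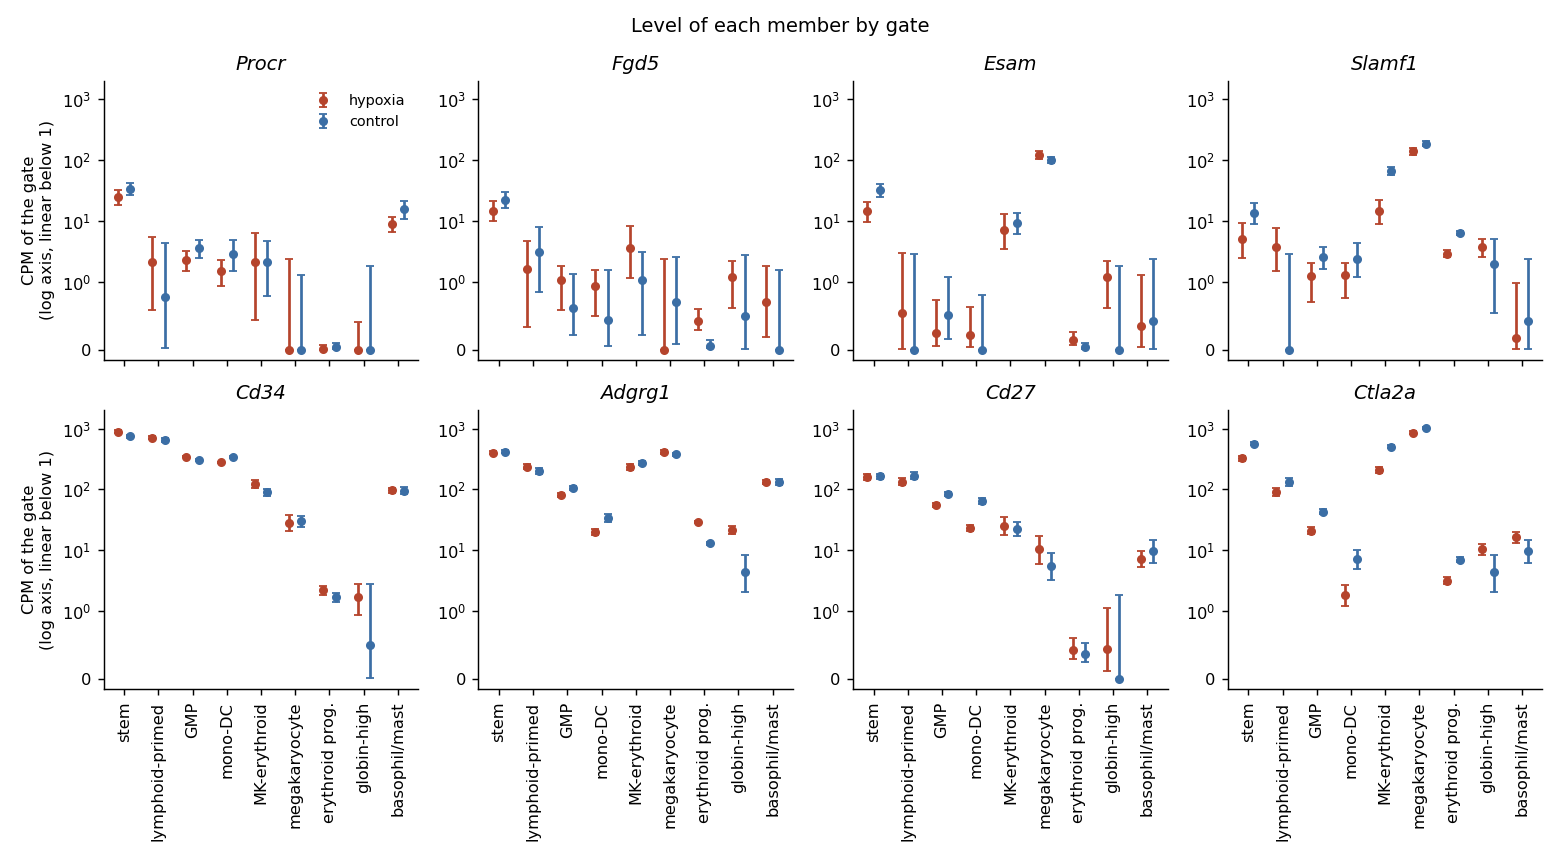
Level of each member in 9 gates as CPM of the gate, on an axis that is logarithmic above 1 and linear below, with hypoxia left of control and bars for exact Poisson 95% intervals. Procr and Fgd5 peak in the stem gate, Esam, Slamf1 and Ctla2a in megakaryocytes, and Cd34 lies lower in the erythroid gates than in the stem gate.

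Slamf1 was called lower in hypoxia in 2 gates on the erythroid side. In megakaryocyte-erythroid progenitors it was at 14.4 CPM (8.82 to 22.3, 20 UMIs in 110 cells) in hypoxia and 66.5 CPM (57.2 to 76.8, 184 UMIs in 212 cells) in control, a ratio of 0.217 (0.130 to 0.345). In erythroid progenitors it was at 2.93 CPM (2.55 to 3.35) in hypoxia and 6.36 CPM (5.83 to 6.92) in control, a ratio of 0.462 (0.392 to 0.542). Globin-high cells, taken as background, were at 3.70 CPM (2.54 to 5.19) in hypoxia and 1.98 CPM (0.539 to 5.07) in control, so the hypoxia level in erythroid progenitors could not be separated from background. In megakaryocytes it was at 139 CPM (121 to 160) in hypoxia and 188 CPM (172 to 205) in control, a ratio of 0.741 (0.629 to 0.871) that did not reach 1.5-fold. Without the top cell of each library that ratio was 0.645 (0.539 to 0.769), which passes it. More than 50% of Slamf1-positive cells were erythroid progenitors in either library, 52.4% of 315 in hypoxia and 51.6% of 607 in control. That gate held 40.3% of all kept hypoxia cells and 51.0% of all kept control cells.

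In the same megakaryocyte-erythroid progenitors Ctla2a was at 209 CPM (186 to 235) in hypoxia and 504 CPM (478 to 531) in control, a ratio of 0.415 (0.365 to 0.472). Slamf1 and Ctla2a were the 2 members called lower there, with 0 higher, of 5 with enough UMIs, beside 6.42% of genes lower and 7.09% higher. The megakaryocyte marker list summed to 154 CPM in hypoxia and 276 CPM in control in this gate (7 of 7 genes with UMIs in both), and the erythroid progenitor list to 2621.5 CPM and 1890.2 CPM (7 of 7 in both). Both members also peak in megakaryocytes, and the part of the marker lists in their difference was not tested. Within a gate, fewer cells of a kind and less RNA per cell cannot be told apart.

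Ctla2a was called lower in hypoxia in 5 of the 9 gates. Besides the stem gate and the megakaryocyte-erythroid progenitors these were granulocyte-monocyte progenitors, at 21.0 CPM (18.5 to 23.8) in hypoxia and 43.1 CPM (39.1 to 47.4) in control, monocyte and dendritic cells, at 1.87 CPM (1.22 to 2.74) and 7.21 CPM (4.96 to 10.1), and erythroid progenitors, at 3.15 CPM (2.76 to 3.58) and 7.05 CPM (6.49 to 7.64). The ratios were 0.488, 0.260 and 0.447. Without the top cell of each library too few UMIs remained for a call in monocyte and dendritic cells, and the ratio was 0.481 in granulocyte-monocyte and 0.439 in erythroid progenitors. The megakaryocyte list was lower beside it in hypoxia granulocyte-monocyte progenitors, at 12.2 CPM against 28.2 CPM in control (6 of 7 genes with UMIs in each, Gp1bb at 0), and its part in the Ctla2a value was not tested. In megakaryocytes, where it was highest in both libraries, it was at 860 CPM (814 to 908) in hypoxia and 1038 CPM in control, a ratio of 0.829 (0.776 to 0.885), and in lymphoid-primed cells at 90.3 CPM and 133 CPM (ratio 0.681). No member was called in either of these gates, beside 4.91% of genes lower and 5.9% higher in megakaryocytes and 4.47% lower and 6.49% higher in lymphoid-primed cells. In globin-high cells, taken as background, Ctla2a was at 10.5 CPM in hypoxia and 4.45 CPM (2.04 to 8.45) in control. However, 96.8% of the 94 hypoxia UMIs and 66.7% of the 9 control UMIs came from 1 cell each. Without the top cell of each library too few UMIs remained for a call. The control interval overlaps those of monocyte and dendritic cells and of erythroid progenitors. In hypoxia both of these gates lay below the globin-high value, so their Ctla2a levels could not be separated from background. T, NK and innate lymphoid cells also held Ctla2a, at 137 CPM (96.1 to 190) in 83 hypoxia cells and 178 CPM (127 to 242) in 68 control cells.

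Cd27 was lower in hypoxia along the myeloid branch. It was at 54.7 CPM (50.6 to 59.1) in hypoxia and 83.2 CPM (77.6 to 89.2) in control granulocyte-monocyte progenitors, a ratio of 0.658 (0.593 to 0.730). In monocyte and dendritic cells it was at 23.6 CPM (21.1 to 26.3) in hypoxia and 65.6 CPM (58.4 to 73.4) in control, a ratio of 0.360 (0.307 to 0.423), and Adgrg1 was lower there as well, at 20.2 CPM (17.9 to 22.7) and 34.3 CPM (29.1 to 40.1). Of the members with enough UMIs, 2 of 5 were called lower in granulocyte-monocyte progenitors (beside 4.36% of genes lower) and 3 of 4 in monocyte and dendritic cells (beside 5.16%), and 0 were higher (beside 5.26% and 7.75%). Cd34 was at 277 CPM (268 to 286) in hypoxia and 341 CPM (325 to 359) in control monocyte and dendritic cells, a ratio of 0.811 below the 1.5-fold limit. The stem cell transcription factor list moved with them there, at 72.2 CPM (7 of 7 genes with UMIs) in hypoxia and 124 CPM (6 of 7, with Mycn at 0) in control, and the granule list was at 8049.9 CPM and 7980.7 CPM (5 of 5 in both). Their part in these values was not tested.

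Adgrg1 went the opposite way on the erythroid side. In erythroid progenitors it was at 29.6 CPM (28.4 to 30.9, 2169 UMIs in 2531 cells) in hypoxia and 13.1 CPM (12.3 to 13.9, 1090 UMIs in 1998 cells) in control, a ratio of 2.26 (2.10 to 2.44). In globin-high cells it was at 21.6 CPM (18.7 to 24.9) in hypoxia and 4.45 CPM (2.04 to 8.45) in control. That is a ratio of 4.85 (2.50 to 10.8), which rests on 9 control UMIs. Globin-high cells are also the type taken as background, and erythroid progenitors lay above them without overlap of intervals in either library. How much of the Adgrg1 level in erythroid progenitors, and of its difference between libraries, was background was not tested. In stem-gated cells, megakaryocyte-erythroid progenitors, megakaryocytes and basophil and mast cells the ratio lay between 0.867 and 1.10. In erythroid progenitors 1 member was called higher and 2 lower of 5, beside 14.1% of genes higher and 5.82% lower. In globin-high cells 2 of 2, Adgrg1 and Ctla2a, were called higher and 0 lower, beside 11.8% and 6.12%. For Ctla2a 96.8% of the 94 hypoxia UMIs there came from 1 cell, and no call remained without the top cell of each library. The globin-high list stood at 1220.1 CPM in hypoxia and 682.5 CPM in control erythroid progenitors (6 of 6 genes in both), and the stem cell list, whose genes include Meis1, at 214 CPM and 127 CPM (7 of 7 in both). Their part in the Adgrg1 values was not tested.

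Cd34 was called in none of the 9 gates. Its level was ordered downward from stem-gated cells through lymphoid-primed cells (703 CPM in hypoxia and 640.5 CPM in control), granulocyte-monocyte progenitors (345 and 302 CPM) and megakaryocyte-erythroid progenitors (121 and 90.3 CPM) to megakaryocytes (28.4 and 30.2 CPM) and erythroid progenitors (2.20 and 1.703 CPM). Monocyte and dendritic cells, at 277 CPM in hypoxia and 341 CPM in control, lay below granulocyte-monocyte progenitors in hypoxia and above them in control. Basophil and mast cells, at 96.0 CPM in hypoxia and 94.8 CPM in control, lay beside the megakaryocyte-erythroid progenitors, with overlapping intervals in control. The ratio ranged from 0.811 to 1.34 over the 8 gates with enough UMIs.

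**Figure D5:**
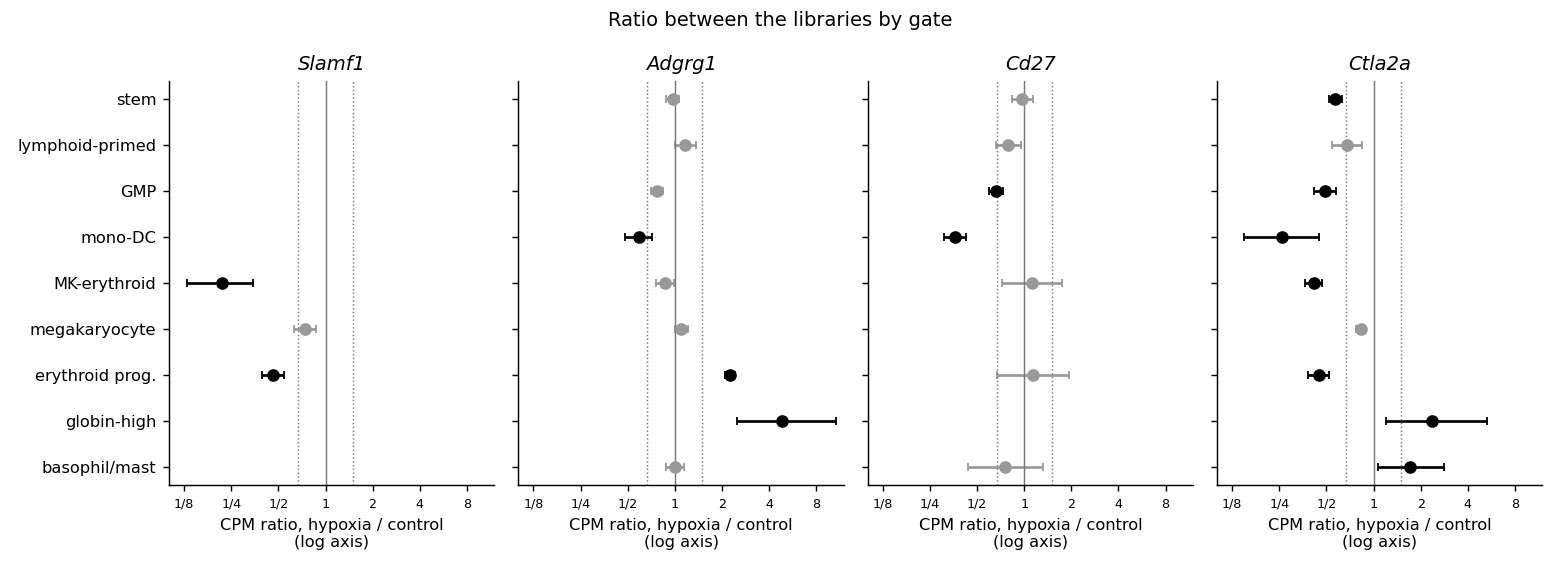
Ratio of CPM, hypoxia over control, of Slamf1, Adgrg1, Cd27 and Ctla2a in the gates with at least 50 UMIs over both libraries, on a log axis with exact 95% intervals. Black points are past 1.5-fold (dotted lines) with an interval that leaves out 1: Ctla2a is lower in 5 gates, Cd27 in 2, and Adgrg1 is higher in erythroid progenitors (2.26) and lower in monocyte and dendritic cells (0.588).

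Outside the stem gate, co-detection of the rare members was most frequent in megakaryocytes, and that of the frequent members in lymphoid-primed cells. Without thinning, Cd34, Adgrg1, Cd27 and Ctla2a were found together in 35.8% of hypoxia and 56.2% of control lymphoid-primed cells. In megakaryocytes they were found together in 9.09% and 5.66%. At least 3 of the 8 members were found in 80.4% and 87.5% of lymphoid-primed cells and in 80.3% and 91.5% of megakaryocytes. Slamf1, Esam and Ctla2a occurred together in 38 hypoxia cells, of which 31 were megakaryocytes and 1 was stem-gated, and in 98 control cells, of which 68 were megakaryocytes and 9 were stem-gated. At least 2 of Procr, Fgd5, Esam and Slamf1 were found in 48.5% (36.0 to 61.1) of hypoxia and 64.2% (54.3 to 73.2) of control megakaryocytes, which were deeper than stem-gated cells in hypoxia (median 19338 UMIs). At 4000 UMIs per cell the shares were 7.02% (1.95 to 17.0) of hypoxia and 21.1% (13.2 to 31.0) of control megakaryocytes, beside 3.66% (1.35 to 7.79) and 9.66% (5.38 to 15.7) of stem-gated cells in the same draw, with overlapping intervals in either library. In lymphoid-primed cells 0 of 148 hypoxia and 0 of 80 control cells held 2 of these 4, which allows up to 2.46% and 4.51% for detection at these depths, not for expression.

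Genes whose level followed each member over the gates were listed by Pearson's r of log2(CPM + 10) across 26 points, each 1 gate in 1 library. These points share libraries and depth, and r is given as a description. Adgrg1 was most like Meis1 (r = 0.92), the homeobox cofactor gene of stem cells and megakaryocytes, followed by Tmem98 and 5730414N17Rik. Ctla2a was most like Mycn (0.92), Pard3b and Serpina3g, and Procr most like Palmd (0.86), Nkx2-3 and Calr3. Esam was most like Slc24a5 (0.96), Myom1 and Mtss1l, and Slamf1 most like Cavin2 (0.95), Plxna4 and Treml1. Cd34 was most like Adgrl4 (0.96), Lrp5 and Hoxa7, and Cd27 most like Gpr171 (0.92), Bcl9l and Dtx3l. With 181 UMIs over the gated cells, Fgd5 was below the minimum of 200. Among the members themselves, with no minimum of UMIs, Esam and Slamf1 (0.89) and Procr and Fgd5 (0.80) were the most alike, and Slamf1 and Cd34 (-0.17) the least.

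Most other surface genes of stem cells lay within 1.5-fold between the libraries, although a larger share passed that limit than of all genes. Of a list of 45, 35 had at least 50 UMIs in the stem gate, and on the log2 scale with 10 CPM added 2 were at least 1.5-fold higher in hypoxia, 3 lower and 30 between, beside 3.07% and 2.69% of all genes. The higher ones were Cd244a, a SLAM family receptor, at 74.7 CPM in hypoxia and 32.0 CPM in control, and Cd53, a tetraspanin, at 226 CPM and 146 CPM. The lower ones were the integrin genes Itgb3, at 11.9 CPM in hypoxia and 26.3 CPM in control, and Itga2b, at 22.7 CPM and 42.3 CPM, and Eng, the endoglin gene, at 29.4 CPM and 50.8 CPM. The members were called by another rule, on the ratio without added CPM and its interval. Under the members' rule the same 3 genes were lower, and Bst2, Pecam1 and Il6st joined Cd244a and Cd53 as higher. By that rule 5.07% of all genes were lower and 5.85% higher. Bst2 was at 34.0 CPM in hypoxia and 19.7 CPM in control, Pecam1 at 114.9 CPM and 74.7 CPM, and Il6st at 60.8 CPM and 40.4 CPM. Kit was at 386 CPM in hypoxia and 329 CPM in control, Ly6a at 52.6 CPM and 43.7 CPM, Cd48 at 255 CPM and 189 CPM, and Flt3 at 323 CPM and 242 CPM, all between the limits. The median log2 ratio was 0.08 for the list, beside 0.01 for all genes and -0.35 for the members.

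Promoters are shown for the members that held a motif of the ETS or GATA factors, which often read stem cell genes. Ctla2a, called lower in the stem gate, is among them. Of the 8 members, 7 matched an entry of the RefSeq promoter table (GRCm38.p6), in which each window runs from 250 bases before to 50 after a start, and Esam did not. Motifs were searched on both strands. The ETS motif, read as AGGAAG, was found in 4 of the 7, Fgd5, Slamf1, Cd34 and Ctla2a, beside 35.4% of 32851 promoters. The GATA motif, read as AGATAA, was found in 1, Ctla2a (11.2% of all), and the E-box CAGCTG in 2, Procr and Slamf1 (16.3%). The RUNX motif TGTGGT was found in 0 of 7 (16.8% of all), and so was ACGTG, the core of the hypoxia response element (19.6% of all). Adgrg1, with 2 windows in the table, and Cd27 held none of the 5. The stretches below end before the first transcribed base of both RefSeq and GENCODE, and capitals mark a motif: ETS in Fgd5, Slamf1 and Cd34 and GATA in Ctla2a, in either orientation.
Fgd5, chr6:91978715-91978877, + strand: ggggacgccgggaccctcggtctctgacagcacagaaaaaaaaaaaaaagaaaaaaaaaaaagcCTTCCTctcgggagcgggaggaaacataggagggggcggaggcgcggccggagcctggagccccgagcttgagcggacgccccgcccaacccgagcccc
Slamf1, chr1:171766882-171767126, + strand: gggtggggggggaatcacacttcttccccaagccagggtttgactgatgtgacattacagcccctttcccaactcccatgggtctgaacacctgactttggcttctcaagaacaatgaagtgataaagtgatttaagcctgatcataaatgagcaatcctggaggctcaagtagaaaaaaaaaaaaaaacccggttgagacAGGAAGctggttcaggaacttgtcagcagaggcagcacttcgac
Cd34, chr1:194938571-194938818, + strand: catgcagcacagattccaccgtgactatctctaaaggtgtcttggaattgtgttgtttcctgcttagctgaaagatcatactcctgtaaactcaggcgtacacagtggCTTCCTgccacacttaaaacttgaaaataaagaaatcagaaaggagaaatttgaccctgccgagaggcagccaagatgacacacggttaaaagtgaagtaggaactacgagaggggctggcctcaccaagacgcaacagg
Ctla2a, chr13:60936626-60936875, - strand: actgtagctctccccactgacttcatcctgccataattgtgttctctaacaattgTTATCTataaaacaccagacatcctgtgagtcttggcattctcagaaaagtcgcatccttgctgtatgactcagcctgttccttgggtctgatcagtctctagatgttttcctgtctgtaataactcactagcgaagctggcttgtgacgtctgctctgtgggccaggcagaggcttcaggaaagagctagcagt
A match is a description of letters in these windows.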

How the data were processed

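Lineage-depleted bone marrow cells of 2 groups, hypoxia and control, were profiled with 1 library each. The deposited values are raw UMI counts for every cell and gene, after recursive substitution error correction, going by the names of the deposited tables. The file headers name the BD WTA Rhapsody Analysis Pipeline, version 1.7.1, and GENCODE vM19 on GRCm38, and the submitters' processing notes name Bowtie2. Neither says how cells were called. The tables held 6406 hypoxia cells (137504361 UMIs) and 3956 control cells (121415081 UMIs).

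Cells with at least 20% mitochondrial UMIs were removed (14 and 6), as were doublets marked by Scrublet in scanpy 1.11.5 (112 and 33). Gates were read in a fixed order from UMIs per 10000 of the cell. The stem gate required Hlf at 1 or more with at least 2 UMIs, Gata1 under 1 and granule genes (Mpo, Elane, Prtn3, Ctsg) under 50. Other gates used Dntt (lymphoid-primed), granule genes (granulocyte-monocyte), Irf8 (monocyte and dendritic), Gata2 with Gata1 (megakaryocyte-erythroid), Pf4 with Itga2b (megakaryocyte), Klf1 with Car1 (erythroid), globins, and Cpa3, Mcpt8, Prss34 and Ms4a2 (basophil and mast). Cells in no gate (540 hypoxia and 293 control) were left out of the gate comparisons. UMIs were summed per gate and scaled to CPM, with exact Poisson intervals, exact conditional intervals of ratios and Clopper-Pearson intervals of shares. UMIs were taken as independent, so intervals leave out variation between cells, animals and preparations. Thinning drew UMIs without replacement (seed 1), and averages over draws treat the genes of a cell as independent. On counts simulated from the stem gate (8652 genes, 100 genes each moved 2-fold and 4-fold), the ratio interval held the true fold for 97% of either set. It did so for 95.6% of the 8452 genes left unmoved. With 1 library per group the simulation holds no variation between animals or preparations, so it checks only how the interval was computed.

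Named genes were all members, for each member the 3 genes with the highest r (at least 200 UMIs, gates with at least 20 cells), and of the other surface genes Kit, Ly6a, Cd48, Flt3 and those past 1.5-fold. The members and lists were chosen with earlier results of these data known, and the split into rare and frequent members was made after their shares were seen. Python 3.11.15 with numpy 2.4.6, scipy 1.17.1, pandas 2.3.3 and biopython 1.88 was used.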

Additional observations from a re-analysis of the deposited data

Results flagged for a closer look

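Adgrg1 and Ctla2a were the members whose difference between the libraries ran in opposite directions in different gates. Adgrg1, hypoxia over control, was 4.85 in globin-high erythroid cells, the type taken as background, and 0.588 in monocyte and dendritic cells. Ctla2a was 2.36 in globin-high erythroid cells, where 1 hypoxia cell gave 96.8% of the UMIs, and 0.260 in monocyte and dendritic cells. With all cells kept, Ctla2a was called higher in 2 gates, globin-high cells and basophil and mast cells. Without the top cell of each library, it had too few UMIs for a call in globin-high and in monocyte and dendritic cells. In basophil and mast cells its ratio was then 1.62 (0.984 to 2.80), so no higher call of Ctla2a remained. With 1 library per group the difference between gates was not tested.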

How the results depend on the processing

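No paired analysis was possible because each group had 1 library. The percent of stem-gated cells with at least 3 of the 8 members (67.7 in hypoxia, 80.0 in control) moved to 39.3 and 36.9 at 2000 UMIs, 84.4 and 89.9 at 8000 UMIs, 92.3 and 98.0 without thinning, 75.9 and 88.7 with doubled Hlf thresholds, and 78.6 and 90.4 with the gate read from thinned counts; only at 2000 UMIs did the order turn. Averaging over all draws (71.1 and 76.1) and requiring Meis1, Hoxa9 or Flt3 (68.1 and 79.9) were added after seeing the data and stayed within the intervals. The other surface genes higher in hypoxia numbered 1 with TMM factors, 4 with 1 CPM added and 5 with doubled thresholds, against 2. The members called lower in the stem gate numbered 2 (Esam and Ctla2a) under 8 of the 9 alternatives run, and 3, with Procr added, under doubled thresholds. The log2 ratio of Slamf1 ranged from -1.25 to -0.22, that of Ctla2a from -0.88 to -0.77 and that of Esam from -1.12 to -0.78. The remaining counts stayed within 1.5 times. Depth limits the rare members most: 39 UMIs of Slamf1 and 77 of Fgd5 stood behind the stem gate values, and no replicate shows how far such values vary between animals.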
